A study of Mus musculus with 11 samples.

Results

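The miR-297, miR-466, miR-467 and miR-669 miRNAs are small RNAs cut from short, repeated hairpins, most of which lie in 1 intron of the mouse gene Sfmbt2. Members were every mature miRNA name in the count tables that begins with mmu-miR-297, mmu-miR-466, mmu-miR-467 or mmu-miR-669 followed by a letter or a hyphen. This rule gave 80 of 1907 names, of which 6 were miR-297 names, 31 were miR-466 names, 13 were miR-467 names and 30 were miR-669 names. The rule used no measured value.

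Small RNAs from the brains of male Balb/cOlaHsd mice aged 3 months were sequenced to find miRNAs that respond to ischemia in vivo. In 5 mice the left middle cerebral artery was closed permanently by thermocoagulation (pMCAO), and in 6 sham mice the artery was exposed and lifted but not closed. Tissue was taken 3 days after surgery, and the labels call it cortex in the sham mice and peri-ischemic cortex, the rim around the infarct, in the pMCAO mice. The labels name no mutant allele. The count tables of both groups are marked as vehicle, with no agent given in the labels. All mice had the same anaesthesia and skull opening, and 1 library was made for each.

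A miRNA hairpin is cut from a longer transcript and then trimmed to a duplex, from which the 5p or the 3p strand is loaded into an Argonaute protein. The loaded strand pairs with target mRNAs mainly through its seed, the bases 2 to 8. Sfmbt2 encodes a Polycomb-related protein and is known as a paternally expressed imprinted gene of the early mouse embryo and placenta, and the hairpins in its intron are found in rodents and arose by local duplication of repeat sequence.

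The duplication is visible in the annotation (GENCODE vM21, GRCm38). It holds 82 hairpins with a name of these families, and 72 of them lie in Sfmbt2, which spans chr2:10370510-10595253 on the plus strand. All 72 are on the strand of Sfmbt2 and 0 overlap an exon. They fill chr2:10466663-10518279, a stretch of 51617 bp inside a single intron of 62472 bp (chr2:10461473-10523944), which is intron 10 of the transcript Sfmbt2-201 and intron 11 of Sfmbt2-205. Neighbouring hairpins were separated by a median of 209 bp. The stretch holds 5 miR-297, 24 miR-466, 14 miR-467 and 29 miR-669 hairpins. A further 47 miRNA gene models in Sfmbt2 carry no name of these families in the annotation and were not counted as members. The other 10 hairpins lie on 7 chromosomes.

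**Figure D1:**
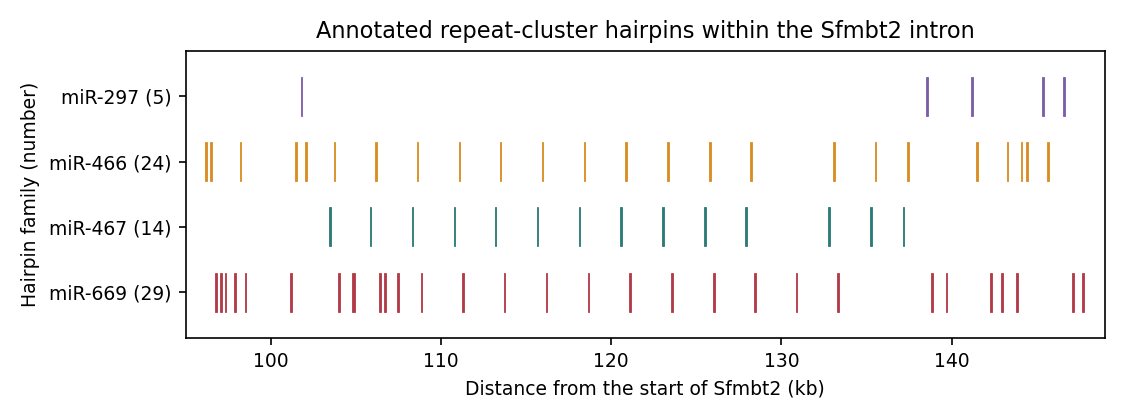
Position of the 72 annotated hairpins in the Sfmbt2 intron, as distance in kb from the start of Sfmbt2, with 1 row per family and the number of hairpins in brackets. The miR-466, miR-467 and miR-669 hairpins alternate at regular steps through the middle of the stretch, and 4 of the 5 miR-297 hairpins lie at its far end.

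A mature sequence was found in the RefSeq miRNA table (GRCm38.p6) for 8 of the 80 names, all of hairpins outside Sfmbt2. They are shown 5′ to 3′, with the seed (bases 2 to 8) in capitals, because a simple repeat can be read directly from most of them. They include no miR-297 name, and sequences of the members in the Sfmbt2 intron were not at hand.
miR-466q: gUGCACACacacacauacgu
miR-466i-3p: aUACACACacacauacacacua
miR-467f: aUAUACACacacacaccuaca
miR-467g: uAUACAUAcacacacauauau
miR-466j: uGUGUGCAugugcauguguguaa
miR-466k: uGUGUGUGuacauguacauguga
miR-467h: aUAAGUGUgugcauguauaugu
miR-669n: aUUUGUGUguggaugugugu

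The first 4 hold the run ACACACA and miR-466j, miR-466k and miR-669n hold the run UGUGUGU, each of 7 bases and searched on the given strand only. Of the 1623 names in the count tables with a RefSeq sequence, 0.308% hold the first run and 0.678% hold the second, these members included. Purines and pyrimidines alternated at 78.9% to 100% of neighbouring bases in the 8 sequences, while the median over the 1623 names was 45%. All 8 seeds were different. The seed of miR-467h is also the seed of miR-668-5p, and no other name with a sequence shared a seed with these 8.

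The libraries held 1429037 to 2319810 counts in the sham group and 744877 to 1411620 counts in the pMCAO group, so the sham libraries were the deeper ones. Levels are therefore given as counts per 1000000 counts (CPM) after normalization by the trimmed mean of M values (TMM), which sets the libraries to a common scale over most miRNAs. A single count was worth 0.499 to 1.18 CPM, and a count of 0 allows a level of up to 1.5 to 3.55 CPM (3 counts), depending on the library. Intervals and floors cover counting error only. The reads carry no molecular identifiers. How reads that match several near-identical hairpins were assigned is not given in the sources used here. They may have been split, duplicated or discarded, so single levels, sums, strand shares and names without a count are all uncertain in this respect. The families are also given as sums, which are free only of the split of counts within a family. Mature miRNAs are of nearly equal length, so CPM of different names are set side by side without a length correction. No 2 libraries of a group agreed within sampling noise.

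By the counts as deposited, the families were a small part of the cortical miRNA pool. All members together took 5661 counts, which was 0.0267% to 0.0516% of a library. The miR-467 names took 2230 of these counts and the miR-669 names 2046, while the miR-466 names took 1027 and the miR-297 names 358. Of the 80 names, 20 had no count in any library, 21 had 1 to 10 counts over all libraries and 39 had more than 10. In all 11 libraries at least 1 count was found for 28 names, and at least 10 counts for 5 names. The most abundant name held 20.4% of the member counts and the 10 most abundant held 68.6%.

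After pMCAO the summed level of the families was 1.17-fold that of sham, and the groups overlapped. It was 289, 343, 296.7, 302, 501 and 323 CPM in sham libraries 1 to 6 (343 ± 80.2, SD, n = 6), and 372, 417, 347, 389 and 472 CPM in pMCAO libraries 1 to 5 (400 ± 47.7, SD, n = 5). Of the sham libraries, 5 lay below every pMCAO library, and sham replicate 5 lay above every pMCAO library. With scaling by total counts alone, sham replicate 5 was at 481 CPM, below pMCAO replicate 5 at 516 CPM. After TMM the means differed by 0.24 on the log2(CPM + 1) scale, against an SD of 0.30 among sham and 0.17 among pMCAO libraries. The members were chosen with earlier results of these libraries known, so the sum is a description and carries no test.

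The sum of sham replicate 5 rested on 688 counts, with an exact 95% Poisson interval of 464 to 540 CPM that covers counting error only. Between the libraries the coefficient of variation of the sum was 23.4% in sham and 11.9% in pMCAO. Without sham replicate 5, an omission chosen after seeing the data, the sham sums were 311 ± 22.1 CPM (SD, n = 5), the fold was 1.29 and the groups did not overlap, with 4.13 CPM between the highest sham and the lowest pMCAO library.

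**Figure D2:**
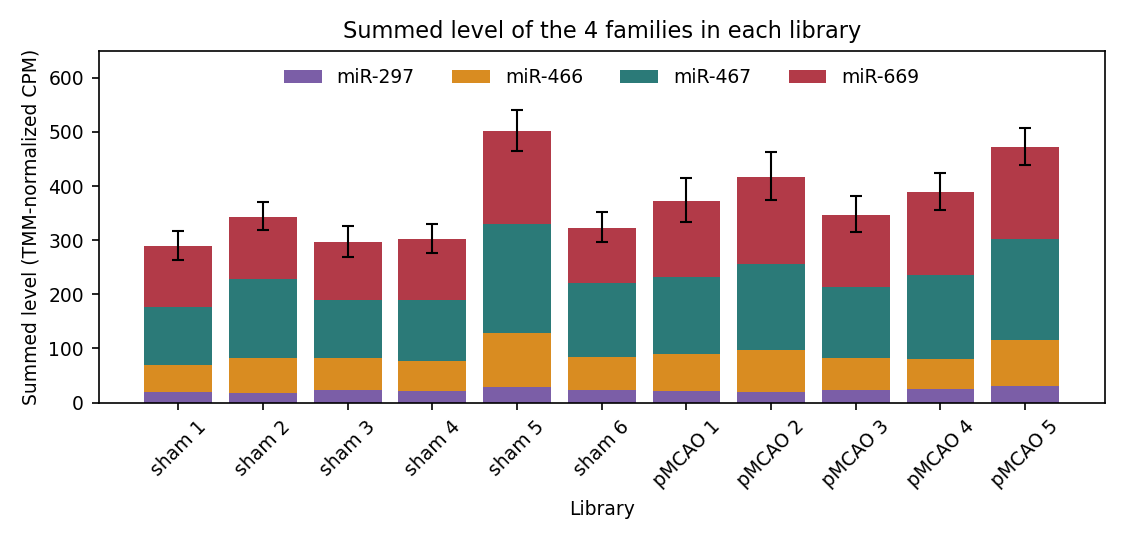
Summed level of all 80 names in each library, in TMM-normalized CPM, stacked by family, with the exact 95% Poisson interval of the total as an error bar. Sham replicates 1 to 4 and 6 sit between 289 and 343 CPM, the pMCAO libraries between 347 and 472 CPM, and sham replicate 5 at 501 CPM.

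Within sham, each of the 4 family sums was highest in replicate 5, and miR-669 showed the widest difference between groups. The miR-669 sum had a lowest, median and highest value of 102, 112 and 171 CPM in sham, and it was 139, 161, 134, 153 and 170 CPM in pMCAO libraries 1 to 5. The means were 120 ± 25.5 CPM in sham and 151 ± 14.8 CPM in pMCAO (SD, n = 6 and 5), a fold of 1.26. Sham replicate 5 lay above the pMCAO range and the other 5 sham libraries lay below it. Without replicate 5 the sham mean was 110 ± 5.51 CPM (SD, n = 5), with 17.9 CPM between the groups.

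The miR-467 sum was 135 ± 36.2 CPM in sham and 155 ± 21 CPM in pMCAO, a fold of 1.15. The miR-466 sum was 64.8 ± 17.6 CPM in sham and 69.0 ± 12.7 CPM in pMCAO, a fold of 1.06. The miR-297 sum was 22.4 ± 3.95 CPM in sham and 23.9 ± 3.91 CPM in pMCAO, a fold of 1.07 (SD, n = 6 and 5 throughout). In these 3 families the groups overlapped with and without sham replicate 5. The names of the 5p strand summed to 188 ± 47.9 CPM in sham and 227 ± 34.2 CPM in pMCAO, and those of the 3p strand to 146 ± 31.7 CPM and 165 ± 17.0 CPM.

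The share of each family in the member counts overlapped between the groups. The miR-467 names held 39.3% ± 2.71 of the member counts in sham and 38.8% ± 1.01 in pMCAO. The miR-669 names held 35.3% ± 2.64 and 38.0% ± 1.32, the miR-466 names 18.8% ± 1.08 and 17.2% ± 1.94, and the miR-297 names 6.63% ± 0.981 and 5.99% ± 0.735 (SD, n = 6 and 5).

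For single members, 15 of the 80 names passed the filter on low counts and were tested among 479 miRNAs by the quasi-likelihood test of edgeR, with p-values adjusted by the Benjamini-Hochberg method. None of the 15 was called at an adjusted p under 0.05 (0 of 15), while 7.10% of all tested miRNAs were called. The lowest adjusted p among members in this edgeR test was 0.154. DESeq2, run as an alternative, tested 27 members and called 0, while it called 42 of all 596 miRNAs it tested. At an unadjusted p under 0.05 there were 2 members, miR-669c-5p and miR-669a-5p, which is 13.3% of the 15 against 24.4% of all tested miRNAs. In 0 of the 15 were the groups free of overlap, against 7.52% of all tested.

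The log2 fold changes were small and mostly on the positive side. They ran from -0.24 to 0.71 with standard errors of 0.18 to 0.46, and the 95% interval included 0 for 13 of 15. The estimate was above 0 for 13 of 15 members, while 50.3% of all tested miRNAs had an estimate above 0. The median was 0.25 for the members and 0.00147 for all tested miRNAs. The members were measured in the same libraries, and 10 of the 15 had their highest sham value in replicate 5. The number of members is therefore not a number of independent observations. By family the estimate was above 0 for 4 of 4 miR-669, 5 of 5 miR-467, 4 of 5 miR-466 and 0 of 1 miR-297 names.

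**Figure D3:**
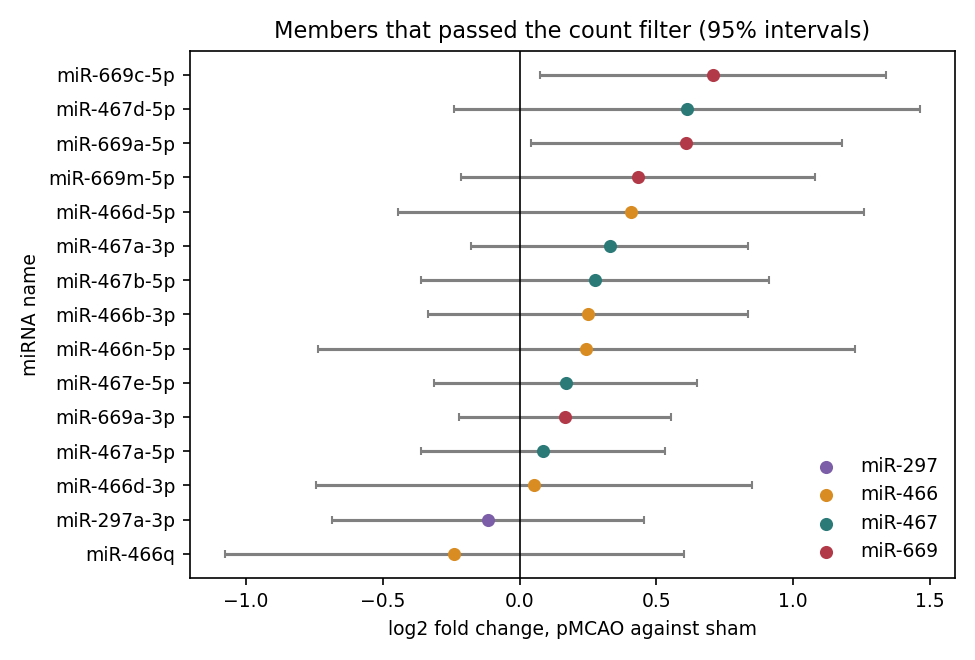
Log2 fold change of pMCAO against sham from the edgeR fit for the 15 members that passed the count filter, coloured by family, with 95% intervals as bars and a vertical line at 0. Points run from -0.24 (miR-466q) to 0.71 (miR-669c-5p), and 13 of the 15 bars cross 0.

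The most abundant member was miR-467a-5p, the 5p strand of a stem that is annotated at 10 hairpins, all in Sfmbt2. It ranked 274 of the 1907 names by mean level. In sham its lowest, median and highest levels were 53.0, 65.8 and 109 CPM, and in pMCAO libraries 1 to 5 it stood at 59.6, 86.3, 64.0, 78.9 and 93.9 CPM. The groups overlapped throughout, and the log2 fold change was 0.08 ± 0.21 (SE). It was 0.0049 without pMCAO replicate 5, 0.24 without sham replicate 5 and 0.26 under total-count scaling. The opposite strand, miR-467a-3p, had 14.2, 14.8 and 29.9 CPM as lowest, median and highest sham values and 25.9, 18.9, 23.2, 17.5 and 25.9 CPM after pMCAO. Of its sham libraries, 4 lay below every pMCAO library and replicate 5 lay above all of them. The log2 fold change of miR-467a-3p was 0.33 ± 0.24 (SE), and 0.54 without sham replicate 5.

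The second most abundant member was miR-669a-3p, whose stem is annotated at 12 hairpins. Its lowest, median and highest sham values were 48.7, 51.3 and 85.2 CPM, and its pMCAO values were 55.1, 62.7, 72.0, 55.4 and 76.4 CPM. Here too replicate 5 was the highest of all libraries, and the log2 fold change was 0.17 ± 0.18 (SE), with 0.32 without that library and 0.10 without pMCAO replicate 5. The minor strand miR-669a-5p differed in that replicate 5 was not its highest sham library. It had 9.48, 15.7 and 26.0 CPM as lowest, median and highest sham values and 22.5, 26.0, 17.6, 31.9 and 33.7 CPM after pMCAO. Its sham values of 26.0 and 23.3 CPM, in replicates 1 and 5, lay within the pMCAO range and the other 4 lay below it. The log2 fold change of miR-669a-5p was 0.61 ± 0.26 (SE, 95% interval 0.04 to 1.18), with an edgeR p of 0.0373 and an adjusted p of 0.172.

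The highest estimate belonged to miR-669c-5p, the product of 1 hairpin. In sham its lowest, median and highest values were 4.79, 6.5 and 11.1 CPM, and in pMCAO libraries 1 to 5 it stood at 15.7, 13.01, 6.40, 13.7 and 11.7 CPM. Apart from pMCAO replicate 3, each pMCAO library was above every sham library. These levels rest on 7 to 18 counts in sham libraries and 8 to 18 counts in pMCAO libraries. The log2 fold change was 0.71 ± 0.29 (SE, 95% interval 0.08 to 1.34), with an edgeR p of 0.0308 and an adjusted p of 0.154.

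The other tested miR-669 name, miR-669m-5p, had 4.49, 5.93 and 13.1 CPM as lowest, median and highest sham values and 7.87, 11.8, 10.4, 9.11 and 10.4 CPM after pMCAO. Replicates 4 and 5 of the sham group reached into or above the pMCAO range, and the log2 fold change was 0.43 ± 0.30 (SE), and 0.66 without sham replicate 5. For miR-467d-5p, the second highest estimate, the sham values were 2.05, 6.58 and 9.47 CPM at the lowest, median and highest, and the pMCAO values were 11.2, 4.73, 10.4, 6.83 and 12.3 CPM. Its groups overlapped over most of their range and the log2 fold change was 0.61 ± 0.40 (SE). With 3 to 18 counts in a sham library, miR-467d-5p was among the least deeply counted of the tested members.

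The third most abundant member, miR-467e-5p, comes from 1 annotated hairpin. It had 17.1, 23.3 and 33.5 CPM as lowest, median and highest sham values and 22.5, 22.5, 21.6, 34.9 and 33.7 CPM after pMCAO, with a log2 fold change of 0.17 ± 0.22 (SE). Without single libraries the value for miR-467e-5p ran from 0.08 (pMCAO replicate 4) to 0.29 (sham replicate 5). In miR-467b-5p the sham values were 3.80, 7.80 and 10.2 CPM at the lowest, median and highest, and the pMCAO values were 13.5, 10.6, 5.60, 8.35 and 9.06 CPM. The log2 fold change of miR-467b-5p was 0.28 ± 0.30 (SE), with 0.12 without pMCAO replicate 1 and 0.42 without pMCAO replicate 3, and both names overlapped widely between the groups.

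Among miR-466 names the most abundant was miR-466b-3p, whose stem is annotated at 8 hairpins. Its sham values were 9.51, 13.6 and 16.4 CPM at the lowest, median and highest, and its pMCAO values were 10.1, 23.6, 16.0, 9.11 and 19.4 CPM. The pMCAO group held both the highest and the lowest library, and the log2 fold change was 0.25 ± 0.27 (SE). It was 0.12 without pMCAO replicate 2 and 0.41 without pMCAO replicate 4. The strands of miR-466d were both tested, with a log2 fold change of 0.41 ± 0.40 (SE) for miR-466d-5p and 0.05 ± 0.37 (SE) for miR-466d-3p. For miR-466d-3p the sham values ran from 2.96 over a median of 6.64 to 12.5 CPM, and the pMCAO values were 5.62, 8.28, 6.40, 5.31 and 10.4 CPM, all inside the sham range.

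Both estimates below 0 had intervals that included 0. For miR-297a-3p, the most abundant miR-297 name, the sham values were 7.52, 8.98 and 16.0 CPM at the lowest, median and highest, and the pMCAO values were 10.1, 5.91, 9.61, 9.11 and 11 CPM. Its log2 fold change was -0.12 ± 0.27 (SE), and its sign depends on the scaling and on which library is left out. For miR-466q, the sham values were 3.17, 8.0 and 12.4 CPM and the pMCAO values 3.37, 9.46, 4.0, 5.31 and 12.3 CPM, which is nearly the same range. Its log2 fold change was -0.24 ± 0.39 (SE), with -0.60 without pMCAO replicate 5 and -0.08 without sham replicate 6. The adjusted p-values of the tested members other than miR-669c-5p and miR-669a-5p were not below 0.407 in the edgeR test, and the 95% intervals over all 15 reached from -1.08 to 1.46, so for several members a doubling after pMCAO lies within the interval.

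**Figure D4:**
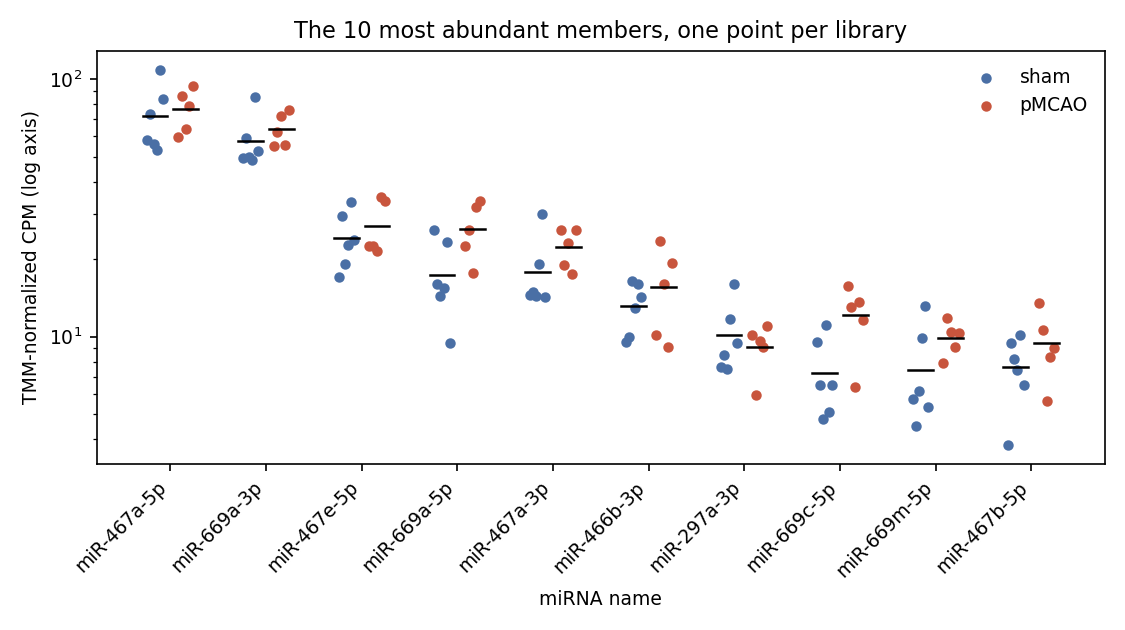
Level of the 10 most abundant members in TMM-normalized CPM on a log axis, with 1 point per library, sham on the left and pMCAO on the right of each name, and a black line at each group mean. The groups overlap for every name, and the offset is widest for miR-669a-5p and miR-669c-5p.

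The 65 names outside the test include 45 with at least 1 count. These 45 held 1204 counts, or 21.3% of the member counts, and the most abundant of them, miR-297c-3p, had a mean of 6.28 CPM and 96 counts. Their sum was 72.7 ± 15.01 CPM in sham (63.5 to 103, n = 6) and 86.6 ± 10.03 CPM in pMCAO (69.6 to 93.4, n = 5; SD), and the groups overlapped. The number of names with at least 1 count was 43.5 ± 1.52 in sham and 41 ± 4.53 in pMCAO libraries. After thinning every library to 744877 counts, the total of the smallest, it was 34.7 ± 1.97 in sham (33 to 38) and 37.6 ± 3.05 in pMCAO (34 to 42). The order of the groups thus turned when the library totals were made equal, and the ranges overlapped both ways. Thinning did not make the TMM factors equal, which averaged 0.948 in sham and 1.07 in pMCAO libraries.

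Nearly all counts fell on stems annotated in Sfmbt2. Names were joined into 44 stems, a stem being the 5p and 3p names of 1 hairpin or of a set of like hairpins. The 36 stems with a hairpin in Sfmbt2 held 5535 counts, or 97.8%, and the 8 stems without one held the rest. Of that rest, 123 counts belonged to miR-466q, whose hairpin (chr3:28419943-28420018) lies in Tnik and overlaps 0 of its exons. The other sequences printed above had 2 counts (miR-466i-3p), 1 count (miR-466k) or 0 counts over all 11 libraries, although miR-466i-3p, miR-467f and miR-467g share the ACACACA run with miR-466q. The counts of a name with hairpins both in and outside Sfmbt2, such as miR-297a, cannot be told apart by origin.

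The number of hairpin copies was an incomplete guide to the level. The 3 stems with at least 5 hairpins, miR-467a, miR-669a and miR-466b, held 52.3% of the member counts. Divided by the hairpins, the mean level was 9.41 CPM for each miR-467a copy, 6.87 CPM for each miR-669a copy and 1.95 CPM for each miR-466b copy. The single hairpin of miR-467e gave 26.0 CPM, and the median stem with 1 hairpin gave 1.88 CPM. Over the 44 stems Spearman's rho between the number of hairpins and the level was 0.48. This rho is a description only, since stems share libraries and may share reads.

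By the counts as deposited, the strands of a stem were counted unequally, and mostly in the same way in every library. The part of the handling of multiply mapped reads in these shares was not tested. Of the 19 stems with at least 50 counts on named strands, 10 had at least 70% of them on the 5p strand, 5 had at most 30% there, and 4 lay between. In 15 of the 19 the same strand was the higher one in all 11 libraries. The strand with more counts differed between families. In miR-467 stems it was the 5p strand, with 79.3% of the counts for miR-467a and 98.3% for miR-467e, while miR-467c had 90 counts on the 5p strand and 0 on the 3p strand. In the stems miR-297a, miR-297b and miR-297c it was the 3p strand, with 152, 75 and 96 counts against 11, 10 and 14. Within miR-669, miR-669a had 943 of its 1268 counts on the 3p strand, and miR-669c had 140 counts on the 5p strand and 2 on the 3p strand. Within miR-466, miR-466b had 217 counts on the 3p strand and 20 on the 5p strand, miR-466n had 5 and 103, and miR-466c and miR-466d were near balance.

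**Figure D5:**
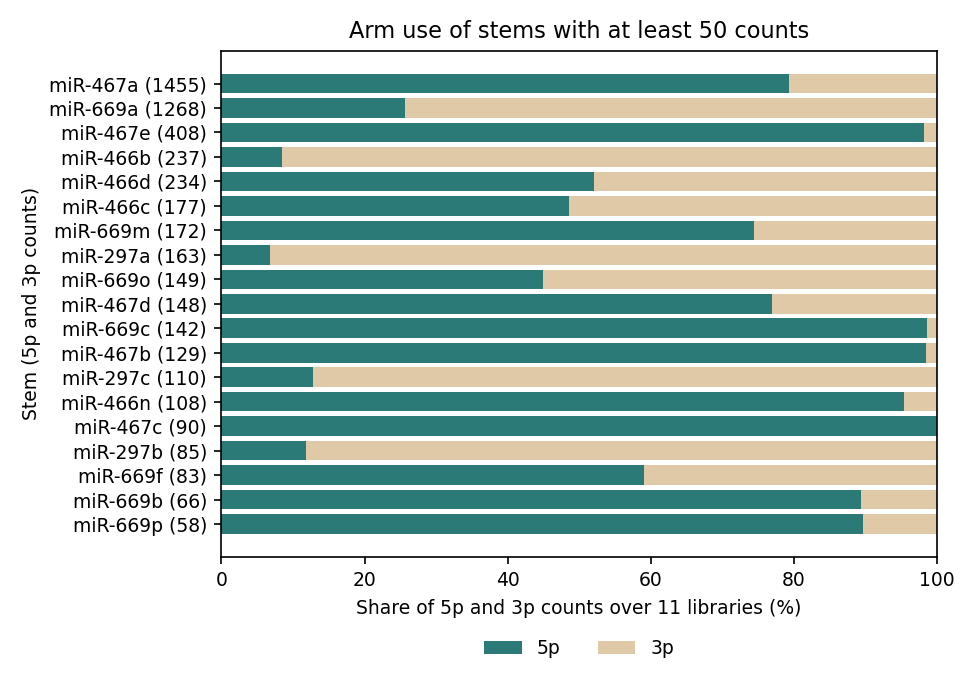
Share of the 5p (dark) and 3p (light) strand in the counts of each of the 19 stems with at least 50 counts, in percent and summed over the 11 libraries, with the counts in brackets. The miR-467 bars are mostly dark and the miR-297 bars mostly light, and the miR-466 and miR-669 bars range from one side to the other.

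In miR-467a and miR-669a, the stems with the most counts, the 5p share overlapped between the groups. The 5p share of miR-467a was 80.0% ± 4.11 in sham and 77.1% ± 5.40 in pMCAO. For miR-669a it was 23.1% ± 6.20 in sham (15.2% to 34.2%) and 28.9% ± 6.02 in pMCAO (19.5% to 36.2%; SD, n = 6 and 5). Both differences were below the SD of single libraries in either group, and both ranges overlapped. This does not show that strand use was equal, and no test of it was run. In the sparsely counted miR-669f, with 83 counts over all libraries, the 5p share was 50.5% ± 18.1 in sham (20% to 71.4%) and 80.2% ± 28.6 in pMCAO (37.5% to 100%), again with overlap. Shares of 100% in pMCAO replicates 1, 2 and 3 rest on 6, 2 and 1 counts of the 5p strand and 0 of the 3p strand.

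Some miRNAs outside the families carry the same simple repeats as the printed members. They were chosen by sequence alone, as the names whose RefSeq sequence holds UGUGUGU or ACACACA, which gave 9 names. Of these, 2 were tested and 0 were called in the edgeR test, where 7.10% of all miRNAs were called. Both are strands of miR-672 on the X chromosome, and they are shown with miR-574-5p, a nearly pure repeat of U and G, for comparison with the member sequences.
miR-672-5p: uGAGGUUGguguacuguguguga
miR-672-3p: aCACACAGucacuaucuucga
miR-574-5p: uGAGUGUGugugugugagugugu

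The strand miR-672-5p was as abundant as the leading members, at 59.4 ± 14.5 CPM in sham and 72.2 ± 14.1 CPM in pMCAO (SD, n = 6 and 5), with a log2 fold change of 0.27 ± 0.19 (SE). The strand miR-672-3p was at 19.8 ± 6.14 and 19.7 ± 5.60 CPM, with a log2 fold change of -0.02 ± 0.26 (SE). In sham replicate 5 miR-672-5p stood at 48.1 CPM, near the lowest sham value of 48.01 CPM, unlike the member sum. The nearly pure repeat miR-574-5p had 1 count over the 11 libraries, and miR-1187, of the same kind, had 0.

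Markers of cell types were read in the same libraries. Among 4 miRNAs typical of myeloid cells and leukocytes, 3 were called higher after pMCAO in the edgeR test, against 21 of all 479 tested miRNAs. They were both strands of miR-142a and miR-223-3p, the last of which stood at 249 ± 123 CPM in sham and 1239 ± 893 CPM in pMCAO. The fourth, miR-150-5p, was not called, with 2735 ± 474 CPM in sham and 2300 ± 416 CPM in pMCAO and a log2 fold change of -0.25 ± 0.15 (SE). The summed level of the list ran from 2422 to 3718 CPM in sham and from 3148 to 6363 CPM in pMCAO. Most of this sum was miR-150-5p, except in pMCAO replicates 2 and 5. In these it was at 2664 of 6363 CPM and at 1602 of 3256 CPM.

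Of 3 brain and neuron miRNAs 0 were called, while 7.10% of all tested miRNAs were called. For miR-124-3p, the main neuronal miRNA, the groups nonetheless did not overlap, with 180835 to 235591 CPM in sham and 148174 to 179928 CPM in pMCAO. Its log2 fold change was -0.32 ± 0.09 (SE), with an edgeR adjusted p of 0.0523. Of all tested miRNAs, 7.52% had groups without overlap. The groups overlapped for the others of this list, miR-9-5p (log2 fold change -0.10 ± 0.11, SE) and miR-128-3p (-0.39 ± 0.18, SE). The sum of the list ran from 279296 to 370360 CPM in sham and from 225839 to 285173 CPM in pMCAO. The summed erythrocyte list had a lowest, median and highest level of 48.6, 166 and 5332 CPM in sham and 637, 1494 and 4700 CPM in pMCAO. Of its sham libraries, 5 lay below every pMCAO library, as for the member sum, but the exception was replicate 1 here and replicate 5 for the members. Of this list 2 were tested and 0 called, and miR-486a-5p was at 0 in sham replicate 4.

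Sham replicate 5 was the highest library for the TMM-normalized member sum. In it miR-223-3p was at 205 CPM and miR-142a-3p at 103 CPM, both inside the range of the other sham libraries. There miR-142a-5p was at 55.4 CPM and miR-150-5p at 2058 CPM, each the lowest value of the sham group. There miR-124-3p was at 207660 CPM and miR-9-5p at 31593 CPM, inside the range of the other sham libraries, and miR-128-3p was at 53426 CPM, below it. The erythrocyte sum was 54.6 CPM in that library. The part of any of these in the member levels was not tested. In whole tissue, a change in the number of cells of a type and a change in the RNA made by each cell cannot be told apart.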

How the data were processed

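Small RNA libraries (Ion Torrent) of 6 sham and 5 pMCAO mice were grouped by their labels. Per the methods, the authors trimmed reads with the Torrent Suite (5.0.2), kept lengths of 20 to 30 bp, mapped them to mm10 with Bowtie and counted them on miRBase 21 with HTSeq. The authors deposited raw counts for 1907 names per library; handling of multiply mapped reads is not given in the sources used here.

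Counts were analysed with edgeR 4.0.16 in R 4.3.3. The filter filterByExpr (minimum count 10, total 15) kept 479 miRNAs, which were scaled by TMM and tested (glmQLFit, glmQLFTest) between the groups with no covariate at an adjusted p of 0.05. Code was tested on simulated data. Sums used log2(CPM + 1). Alternatives were RLE and total-count scaling, DESeq2 1.42.0, other filters, a replicate block, thinning and leaving out libraries. Named members were the 10 most abundant, the leader of each family and the 3 highest and 3 lowest fold changes; miR-466d-5p, miR-297c-3p and the stems were added after their values were seen. Members and lists were chosen with earlier results of these data known. Hairpins came from GENCODE vM21 and 1 RefSeq synonym.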

Additional observations from a re-analysis of the deposited data

Results flagged for a closer look

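In sham replicate 5 several values stood apart from the other 5 sham libraries by Dixon's criterion, which compares the gap to the nearest library with the whole range. The summed level of all members was 501 CPM there, with the next sham library at 343 CPM. The miR-669 sum was 171 CPM (next 116), the miR-466 sum was 99.1 CPM (next 65.4), the 5p sum was 280 CPM (next 197) and the 3p sum was 210 CPM (next 138). Among single names, miR-669a-3p was at 85.2 CPM (next 59.4) and miR-467a-3p at 29.9 CPM (next 19.1). In all, 42 groups were checked and 7 stood apart. Chance marks about 1 in 20 groups, or 2.1 of 42, and these values are not independent, since the sums hold the single names. No pMCAO library was marked. Of the 15 tested members, 10 had their highest sham value in replicate 5.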

How the results depend on the processing

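No member was called under any of the 18 alternatives (edgeR, or DESeq2 with 27 members tested). Over all tested miRNAs, the calls ran from 16 of 472 without sham replicate 3 to 44 of 479 under total-count scaling. These 2 fits tested 14 and 15 members. The lowest adjusted p among members was 0.0771 under total-count scaling, and 0.0831 to 0.287 when single libraries were left out. Total-count scaling moved the median log2 fold change from 0.00147 to 0.18 over all tested miRNAs and from 0.25 to 0.43 over the members, and the fold of the summed level was 1.32 against 1.16 with RLE. Leaving out sham replicate 5 gave 4 of 14 members at an unadjusted edgeR p under 0.05, where the full set gave 2 of 15. In the full set 24.4% of all tested miRNAs passed this cut. That share was not computed for fits without single libraries. There was 1 such member without sham replicate 2 or 4 or pMCAO replicate 1 or 5. There were 0 without sham replicate 3 or 6 or pMCAO replicate 4. The log2 difference of the sum ran from 0.18 to 0.36 with single libraries left out and stayed positive. The sign turned for miR-297a-3p with total-count scaling (0.0501) and with single libraries left out (-0.18 to 0.0611), and for miR-466d-3p with the replicate block (-0.0731) and with single libraries left out (-0.14 to 0.17). The number of names detected, pMCAO minus sham, was -2.5, and 2.93 after thinning. The cause of these changes was not tested, and thinning equalizes library totals only.

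With the replicate block 0 of 15 members were called, 12 of 15 estimates were above 0 and 22 miRNAs were called in all against 34. Deviations of same-numbered libraries correlated at 0.12, 0.11, 0.055, -0.077 and 0.23, so not every pair was above 0.1 and the libraries were taken to share only a number, which does not show that they are unpaired. A comparison of names with identical mature sequences was not run, since a sequence was at hand for 8 of 80 names. Most single members could not be tested, since 65 names had too few counts. The part of depth and of the handling of multiply mapped reads in this was not tested.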
